A study of Mus musculus with 18 samples.

Results

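Mitochondrial ribosomal protein genes are the nuclear genes that encode the proteins of the mitochondrial ribosome, and they were followed here in regulatory T cells (Tregs) from injured tissue and from spleen. Members were all rows of the count tables with a deposited biotype of protein_coding and a name that starts with Mrpl or Mrps and a digit. There were 68 such rows of 46078, of which 42 carried large subunit (Mrpl) and 26 small subunit (Mrps) names. They held 67 distinct names, because Mrps23 was listed under a second identifier, which had 0 counts in all 18 libraries. Mrpl53 also failed the filter on low counts and was listed at 0 counts in every library, and most of its exons overlap annotated exons of Gm42688 and Ccdc142os. The remaining 66 members passed the filter in every comparison. Another 10 genes of the family (Mrpl17, Mrpl18, Mrpl20, Mrpl33, Mrpl46, Mrpl48, Mrps9, Mrps10, Mrps24 and Mrps34) carry another biotype in the deposited tables and are not members.

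The mitochondrial ribosome, or mitoribosome, translates the few messenger RNAs made from mitochondrial DNA, all of which encode subunits of the oxidative phosphorylation complexes. Its ribosomal RNAs come from mitochondrial DNA, while every one of its proteins is encoded in the nucleus, made in the cytosol and imported, so its assembly needs both genomes. Part of the proteins have relatives in bacterial ribosomes and part are found in mitochondria only. Tregs are CD4 T cells defined by the transcription factor Foxp3 that restrain immune responses, and oxidative metabolism is known to be important to them.

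Tregs were sorted by flow cytometry from male Foxp3(DTR/GFP) mice aged 10 weeks, a knock-in strain shared by all groups, and profiled by bulk RNA sequencing. On day 7 after injury the cells came from a calvarial bone defect, a volumetric muscle loss in the quadriceps, full thickness punch wounds of the skin, or the heart after myocardial infarction by ligation of the left coronary artery. For each injured tissue there were 3 libraries, each from the pooled cells of 3 mice, beside 6 libraries of uninjured spleen, whose pooling is not stated. The samples hold no uninjured tissue other than spleen, so an effect of injury and one of tissue cannot be told apart, and a gene that rose or fell did so relative to spleen. In bulk samples fewer cells of a type and less RNA per cell cannot be told apart either. The 4 comparisons with spleen share the same 6 spleen libraries, so their values are given side by side and not as independent evidence.

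Library totals ran from 5970346 to 22635760 counts. Foxp3 stood at 344 to 444 CPM (counts scaled to library size) in spleen and at 587 to 837 CPM in the injured tissues. Ribosomal and 7SK RNA made up 6.54% to 8.25% of counts in bone, 8.69% to 16.8% in the other tissues and 13.2% to 25.9% in spleen, with spleen replicates 1 and 2 highest. Library names come in 2 styles, Endo (spleen replicates 1 to 3, skin, heart replicate 1) and Tregs (all others), and fold changes were adjusted for that style while CPM levels were not. Bone and muscle folds therefore rest on spleen replicates 4 to 6 and skin folds on replicates 1 to 3. Summed markers of B cells ran from 42.0 to 128 CPM in spleen and from 56.5 to 95.9 CPM in bone, against 18.1 to 58.7 in heart, 12.2 to 15.7 in skin and 10.8 to 13.8 in muscle. Summed fibroblast markers reached at most 11.8 CPM in spleen and 8.89 CPM in heart, 48.0 in bone, 45.0 in muscle and 107 in skin. Skeletal muscle markers reached 104 CPM in muscle and at most 6.30 CPM in any other group, and macrophage markers reached 72.0 CPM in heart and at most 30.7 CPM elsewhere. The part of these cell types in the results below was not tested.

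Promoters of the members were compared by short motifs, since such genes are known to be controlled by factors that bind close to the start site. RefSeq's table (build GRCm38.p6) held 59 of the 67 names. Not matched were Mrpl4, Mrpl13, Mrpl15, Mrpl19, Mrpl38, Mrpl54, Mrps28 and Mrps35. Both strands of the 300 bases from 250 before to 50 after each start were searched. The ETS motif CCGGAAGT, bound by GABP, was found in 9 of 59 members (15.3%) and in 4.31% of the 27025 genes of the table. The NRF1 motif GCGCATGCG was found in 6 members (10.2%, against 1.95%) and the YY1 motif AAGATGGCG in 7 (11.9%, against 1.64%). The general motifs CCAAT (22 members, 37.3%, against 41.1%) and CACGTG, the E-box that MYC can bind (4 members, 6.78%, against 8.09%), were about as frequent as in the whole table. The table includes genes of all types, and a match describes letters only. The 250 bases before the start of 4 members that passed a test below follow, 5′ to 3′, with matches to any of the 5 motifs in capitals. They show 1 ETS match in Mrps27, overlapping and single NRF1 matches with a CCAAT box in Mrpl32, an E-box next to an ETS match in Mrps18c, and no match in Mrpl12.
Mrps27 (chr13:99344536-99344785, plus strand): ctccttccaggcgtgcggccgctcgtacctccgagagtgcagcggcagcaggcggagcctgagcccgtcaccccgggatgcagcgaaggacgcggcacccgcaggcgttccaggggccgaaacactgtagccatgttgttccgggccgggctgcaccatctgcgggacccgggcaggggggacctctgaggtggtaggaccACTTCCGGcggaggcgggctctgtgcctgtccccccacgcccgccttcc
Mrpl32 (chr13:14613038-14613287, minus strand): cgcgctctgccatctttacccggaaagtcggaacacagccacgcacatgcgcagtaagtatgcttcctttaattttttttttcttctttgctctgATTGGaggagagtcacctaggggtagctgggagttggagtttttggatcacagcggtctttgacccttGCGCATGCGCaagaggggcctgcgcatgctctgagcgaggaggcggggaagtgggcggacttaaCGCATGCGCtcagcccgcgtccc
Mrps18c (chr5:100798509-100798758, plus strand): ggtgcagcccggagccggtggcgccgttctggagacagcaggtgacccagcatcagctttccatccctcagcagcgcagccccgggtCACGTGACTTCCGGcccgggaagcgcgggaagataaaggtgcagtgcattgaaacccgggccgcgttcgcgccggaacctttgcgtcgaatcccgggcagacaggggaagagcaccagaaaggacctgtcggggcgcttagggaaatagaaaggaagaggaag
Mrpl12 (chr11:120484387-120484636, plus strand): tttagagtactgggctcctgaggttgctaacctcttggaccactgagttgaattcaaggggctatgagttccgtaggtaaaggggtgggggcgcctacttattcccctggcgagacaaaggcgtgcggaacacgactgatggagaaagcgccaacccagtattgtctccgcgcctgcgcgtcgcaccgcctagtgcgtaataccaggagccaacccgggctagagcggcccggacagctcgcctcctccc

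As a whole the members were measured at overlapping levels in spleen, muscle, skin and heart Tregs and at a lower level in bone Tregs. Summed over all members, the level was 1015 CPM in bone replicate 1 and 968 and 989.7 CPM in the bone libraries b and c, whose replicate numbers the files do not give. Spleen libraries ran from 1148 over a median of 1206 to 1417 CPM. The sums were 1414, 1134 and 1089.8 CPM in muscle replicates 1 to 3, 1434, 1317 and 1176 CPM in skin replicates 1 to 3, and 1073, 1317 and 1455 CPM in heart replicates 1 to 3. Every bone library was below every other library, and the other groups overlapped. The mean was 991 ± 23.4 CPM for bone (SD, n = 3) and 1251 ± 107 for spleen (n = 6). Muscle averaged 1213 ± 176, heart 1281 ± 193 and skin 1309 ± 129 CPM, with n = 3 for each. Large subunit proteins summed to 695 to 742 CPM in bone and at least 777 CPM elsewhere. Small subunit proteins summed to 270 to 276 CPM in bone and at least 286 CPM elsewhere. The bone libraries also had the lowest share of ribosomal and 7SK RNA. With library sizes taken without those RNAs, the highest bone sum was 1177 CPM and the lowest of any other library 1238 CPM.

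**Figure D1:**
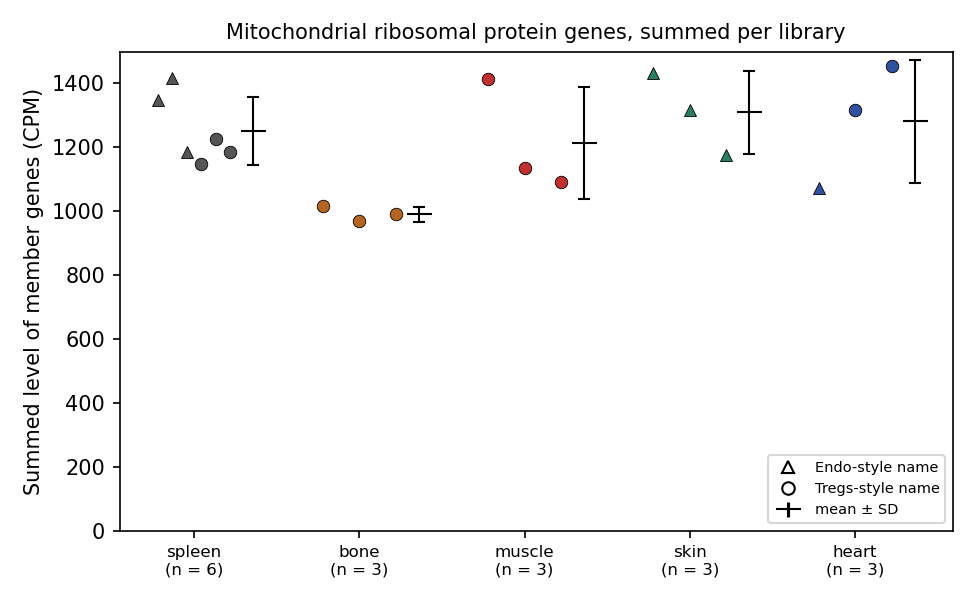
Summed level of the 68 member rows in each of the 18 libraries, in CPM (counts scaled to library size), by group, with triangles for Endo-style and circles for Tregs-style library names and black bars for mean ± SD. The 3 bone libraries lie between 968 and 1015 CPM, below all others, of which heart replicate 1 is lowest at 1073 CPM.

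Against spleen, few single members passed the test in any tissue. Calls were made with edgeR (quasi-likelihood test, adjusted p by Benjamini-Hochberg over all genes, threshold 0.05). In bone 1 member rose and 6 fell, out of 66 (10.6%), where 14.8% of all 15617 genes tested were called, 8.48% higher and 6.32% lower. In muscle 1 rose and 2 fell (4.55%, against 25.5% of all genes, 14.2% higher and 11.3% lower). In skin 3 rose and 3 fell (9.09%, against 27.8%, 15% higher and 12.8% lower). In heart 1 rose and 1 fell (3.03%, against 20.3% of 15025 genes, 11.8% higher and 8.46% lower). Counting both directions, the share of members called was thus below that of all genes in each tissue. For decreases alone it was above in bone, with 6 of 66 members against 6.32% of all genes. The members' median log2 fold change was -0.33 for bone, beside 0.01 for all genes. It was 0.00 for muscle (all genes -0.01), -0.07 for skin (all genes -0.07) and -0.02 for heart (all genes -0.03). In bone 55 of 66 members had a negative fold change, most of them short of the threshold, and the members between the lower and upper quartile ran from -0.60 to -0.09. In muscle, skin and heart 32, 36 and 34 of the 66 were negative. The 95% interval of the fold change lay within 2-fold in either direction for 35 members in bone and 41 in skin. In muscle it did so for 45 members and in heart for 46. The intervals of the others leave room for differences larger than that. These others include members that were called, such as Mrps5 in skin and Mrps27 in heart. In bone 12 of the 66 members lay below every spleen library (8.49% of all genes did) and 1 above (12.2%). In muscle 4 lay below (11.7%) and 2 above (14.9%), in skin 4 below (15.1%) and 5 above (18.8%), and in heart 1 below (10%) and 2 above (13.2%).

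The bone counts depend on single libraries. Without spleen replicate 5 or bone library c, 2 members were called against spleen, without spleen replicate 6, 3, and without bone library b, 4. Those fits called 1083 to 1200 of all genes higher and 720 to 799 lower, beside 1325 and 987 in the main fit. Without the naming style in the model 13 members were called, 1 higher and 12 lower, beside 1552 higher and 1150 lower of 15617 genes. Counting both directions, that fit called a larger share of the members than of all genes. The share called lower was also larger, and the share called higher was smaller. With replicate numbers as a block 1 was called, but in that fit bone rests on replicate 1 alone and spleen on replicates 1 to 3, because no other group shares the numbers of the remaining libraries, and it has no term for style. The median stayed negative under every alternative run, between -0.63 and -0.30. Within a group, the coefficient of variation of the median member was between 16.5% (skin) and 24.3% (muscle).

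**Figure D2:**
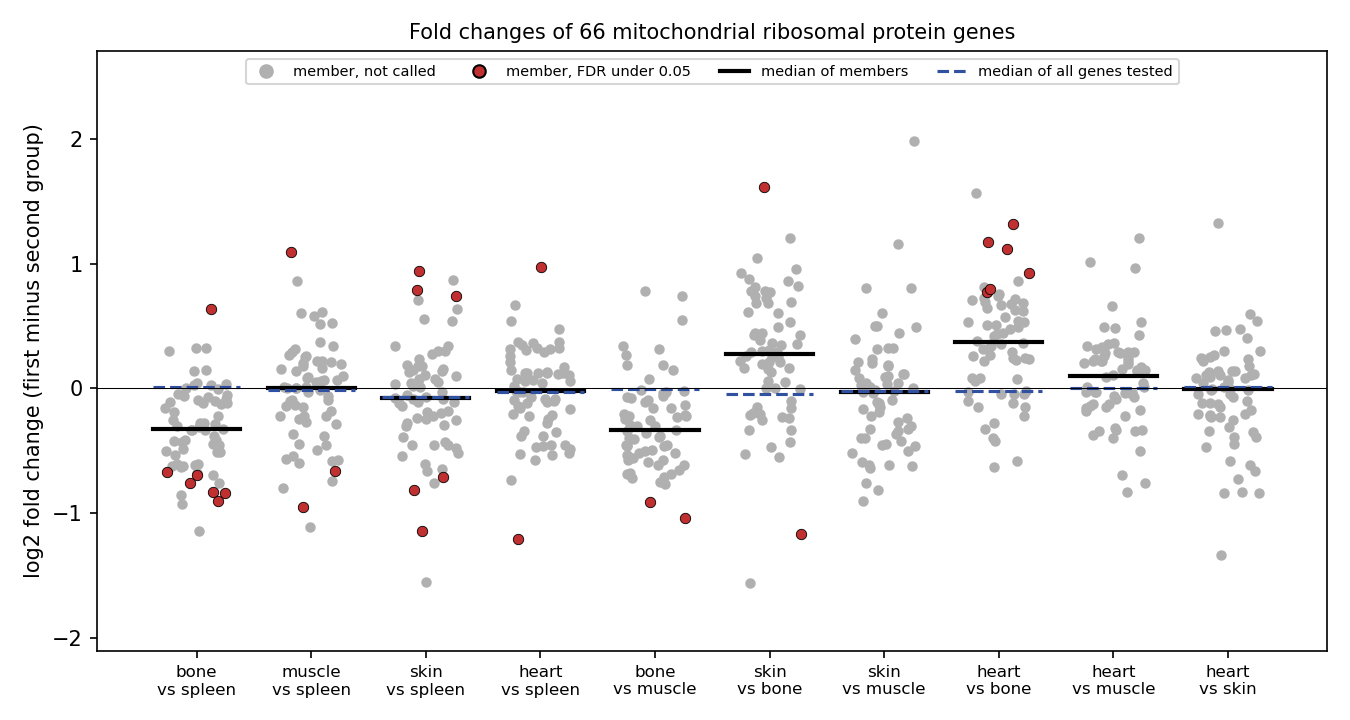
log2 fold change of each of the 66 tested members (points) in the 10 comparisons, first group minus second, with members past an adjusted p of 0.05 in red, the median of members as a black line and the median of all genes tested as a dashed blue line. The members' median lies at -0.33 in bone vs spleen, -0.34 in bone vs muscle, 0.28 in skin vs bone and 0.37 in heart vs bone, and between -0.07 and 0.10 in the other 6 comparisons.

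Mrpl4, a large subunit protein whose bacterial relative lines the peptide exit tunnel, was the one member that rose in all 4 tissues. Its gene (ENSMUSG00000003299) lies on chromosome 9, 21002738 to 21008839, plus strand of GRCm38, and overlaps no other annotated exon. Spleen libraries held 18.1 to 24.8 CPM of Mrpl4 with a median of 20.5. It stood at 33.0 CPM in bone replicate 1 and at 27.3 and 33.4 CPM in bone libraries b and c. Muscle replicates 1 to 3 held 38.1, 48.1 and 41.8 CPM, skin 44.5, 50.2 and 33.9 CPM, and heart 36.4, 41.3 and 45.0 CPM. All 12 tissue libraries were above all 6 spleen libraries. The log2 fold change was 1.09 ± 0.19 (SE) in muscle (edgeR adjusted p = 0.00016), 0.94 ± 0.20 in skin (adjusted p = 0.00077), 0.97 ± 0.18 in heart (adjusted p = 0.0015) and 0.64 ± 0.19 in bone (adjusted p = 0.026). The muscle, skin and heart calls held under every alternative run. The bone call was lost without spleen replicate 4 or 5, without bone replicate 1 or library c, with spleen limited to the 3 Tregs-style libraries, and with replicate numbers as a block (adjusted p from 0.052 to 0.23). Mrpl4 passed no comparison between tissues. Its neighbour Icam1, an adhesion gene that starts 7146 bases beyond its end on the same strand, also rose, with log2 fold changes of 1.36 (bone), 1.98 (muscle), 2.27 (skin) and 1.28 (heart). On the other side S1pr2, a receptor for sphingosine phosphate, passed in none of the 4 comparisons (0.07, 0.27, -0.35 and -0.19).

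Mrpl12, a protein of the ribosomal stalk that recruits translation factors and can also bind the mitochondrial RNA polymerase, was lowest in bone. It stood at 12.8 CPM in bone replicate 1 and at 10.01 and 11.03 CPM in bone libraries b and c. Spleen ran from 18.2 to 27.2 CPM with a median of 21.8, muscle held 27.7, 17.96 and 23.8 CPM, skin 20.9, 26.6 and 25.4 CPM, and heart 21.7, 26.3 and 37.0 CPM. No bone library reached any other library. The log2 fold change was -0.84 ± 0.21 against spleen (adjusted p = 0.0083) and -1.04 ± 0.21 against muscle (adjusted p = 0.0064). Heart was higher than bone by 1.32 ± 0.24 (adjusted p = 0.0024), and skin against bone did not pass. Each of the 3 calls was lost in 1 alternative, the block on replicate numbers, where the folds were -1.01, -0.91 and 1.11 and bone rests on 1 library. The gene (ENSMUSG00000039640, chromosome 11, 120484613 to 120489065, plus strand) shares 200 exon bases with the lincRNA Gm16755 on the other strand, and the strand setting of the counting is not given. Of the other stalk proteins, Mrpl10 had a fold change of -0.09 in bone (95% interval -0.50 to 0.33) and Mrpl11 of -0.19 (-0.78 to 0.39), and neither passed in any comparison.

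The other 5 members that fell in bone have relatives in bacterial ribosomes except Mrpl52, which is specific to mitochondria. Mrpl1 fell by 0.70 (adjusted p = 0.033), Mrpl30 by 0.76 (adjusted p = 0.032), Mrpl35 by 0.83 (adjusted p = 0.024), Mrpl52 by 0.67 (adjusted p = 0.025) and Mrps6 by 0.90 (adjusted p = 0.033) on the log2 scale, by edgeR. Mrpl30 was at 20.2 CPM in bone replicate 1 and at 19.7 and 21.3 CPM in libraries b and c, below the 26.2 to 38.0 CPM of spleen (median 34.1). Mrpl1 and Mrpl52 did not overlap spleen either, with means of 16.8 against 24.7 CPM and 24.6 against 36.6 CPM. Mrpl35 and Mrps6 overlapped it. All 5 calls were lost with the replicate block and in 3 or more of the other alternatives. That of Mrpl1 was lost without spleen replicate 4, bone replicate 1 or library c (adjusted p at most 0.16). It was also lost without the filter (0.061) and with spleen limited to the Tregs-style libraries (0.052). Mrpl30 lost its call without spleen replicate 4, 5 or 6 or any 1 bone library (up to 0.095). Mrpl35 lost it without spleen replicate 5 or 6 or bone library b or c (up to 0.14). Mrpl52 did so without spleen replicate 5 or 6 or library c (up to 0.13), and Mrps6 without spleen replicate 5 or 6 or library b (up to 0.17). The Mrps6 call was also lost without the naming style in the model (-0.57, adjusted p = 0.21). Mrps6, which binds beside Mrps18c in the small subunit platform, shares exon bases with Slc5a3 on the same strand, so its reads are uncertain.

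In muscle, Mrps31, a small subunit protein specific to mitochondria, fell by 0.95 (edgeR adjusted p = 0.028) and Mrpl52 by 0.66 (adjusted p = 0.018) on the log2 scale. Mrps31 was at 3.96, 5.36 and 6.87 CPM in muscle replicates 1 to 3, below the 9.02 to 12.4 CPM of spleen. Mrpl52, which had the highest level per kilobase of exon of all members (28.5 RPKM over all libraries, ahead of Mrpl24 at 27.1 and Mrpl54 at 23.6), was at 29.0, 23.8 and 21.8 CPM there and at 30.6 to 44.6 CPM in spleen. Without muscle replicate 2, 1 member was called in muscle. There were 7 (2 higher, 5 lower) without the naming style, 9 (2 higher, 7 lower, median -0.32) with the replicate block and 5 (2 higher, 3 lower) by limma-voom. Of all 15617 genes, these fits called 2457, 2493 and 2298 higher and 2057, 2197 and 1878 lower. The main fit called 2222 higher and 1762 lower. The Mrps31 call was lost without muscle replicate 1 or 2 or spleen replicate 4 or 5 (edgeR adjusted p from 0.054 to 0.10). It was also lost without the filter (0.087) and with spleen limited to the Tregs-style libraries (0.082). The Mrpl52 call was lost without muscle replicate 2 or 3 or spleen replicate 6 (adjusted p from 0.056 to 0.087), and with the replicate block (0.056).

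In skin, Mrps5 was the member with the largest called decrease. Mrps5 is a small subunit protein with a bacterial relative that helps to form the channel through which messenger RNA enters. It was at 15.2, 17.95 and 14.8 CPM in skin replicates 1 to 3 and at 20.6 to 36.9 CPM in spleen with a median of 28.8. Bone held 21.3, 30.0 and 19.9 CPM, muscle 18.2, 20.1 and 20.9 CPM, and heart 20.3, 17.5 and 21.01 CPM. Skin lay below every spleen, bone and muscle library and overlapped heart. The log2 fold change against spleen was -1.14 ± 0.20 (adjusted p = 0.00015), a call that held under every alternative run. Against the Endo-style spleen libraries, at 33.4, 36.9 and 34.0 CPM, the gap was wider than against the Tregs-style ones, at 24.2, 20.6 and 24.3 CPM. The fold against bone was -1.17 ± 0.28 (edgeR adjusted p = 0.012). As skin and bone libraries differ in naming style throughout, it rests also on the difference between the spleen styles. The call was lost without the naming style (-0.57, adjusted p = 0.098) and without spleen replicates 1 and 2 (-1.12, adjusted p = 0.088). It was also lost with the replicate block (-0.52), where bone rests on 1 library. A pseudogene, Gm13328, matches Mrps5 at 98.4% identity and had 12.1% of its counts.

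Also in skin, Mrpl49 fell by 0.82 (edgeR adjusted p = 0.034) and Mrps35 by 0.71 (adjusted p = 0.014), while Mrpl57 rose by 0.79 ± 0.28 (adjusted p = 0.039) and Mrpl32 by 0.74 ± 0.21 (adjusted p = 0.010). Mrpl57, a short protein specific to mitochondria, was at 19.9, 22.0 and 22.5 CPM in skin replicates 1 to 3 and at 7.49 to 14.4 CPM in spleen (median 9.73). It was at 10.3, 12.2 and 7.19 CPM in bone, 17.1, 11.2 and 8.61 CPM in muscle and 8.29, 8.73 and 13.8 CPM in heart. Skin thus lay above all libraries of the other groups. Mrpl32, which is matured by a mitochondrial protease before it joins the large subunit, was at 29.5, 48.0 and 39.6 CPM in skin and 17.9 to 39.4 CPM in spleen (median 27.1), and these groups overlapped. It was at 30.9, 32.4 and 35.3 CPM in bone, 52.4, 52.7 and 40.9 CPM in muscle and 37.3, 42.6 and 48.6 CPM in heart. The muscle fold of 0.52 (95% interval 0.11 to 0.94, adjusted p = 0.060) and the heart fold of 0.54 (0.15 to 0.93, adjusted p = 0.0505) did not pass. Without spleen replicates 1 and 2, the libraries richest in ribosomal RNA, all 4 of these skin calls were lost and 2 members remained called. Spleen replicate 3 is then the one Endo-style spleen library, and the folds were -0.79 for Mrpl49, -0.65 for Mrps35, 0.91 for Mrpl57 and 0.54 for Mrpl32. The count was also 2 without spleen replicate 2 and 3 without skin replicate 2. Mrpl49 lost its call without any 1 skin library or spleen replicate 1, 2 or 3 (adjusted p at most 0.13), and Mrps35 without spleen replicate 2 or skin replicate 1 (up to 0.11). Mrpl57 lost it without spleen replicate 2 or 3 or skin replicate 2 or 3 (up to 0.11), and Mrpl32 without spleen replicate 2 or skin replicate 2 (up to 0.090). Without the naming style Mrps35 was at -0.44 (adjusted p = 0.12) and Mrpl32 at 0.44 (adjusted p = 0.10). Mrpl49 and Mrpl57 were not called by limma-voom (adjusted p = 0.069 and 0.068), nor Mrpl49 without the filter (0.066) or Mrpl57 with upper-quartile scaling (0.071).

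In heart, Mrps27 was the member that fell. Mrps27 is a small subunit protein of the pentatricopeptide repeat family, which binds RNA, and is specific to mitochondria. It was at 5.09, 4.72 and 8.03 CPM in heart replicates 1 to 3 and at 9.78 to 15.5 CPM in spleen with a median of 14.6. Bone held 8.03, 7.62 and 7.90 CPM, muscle 8.42, 10.6 and 9.85 CPM, and skin 13.5, 10.8 and 7.53 CPM. Heart and bone lay below all spleen libraries. The heart fold was -1.21 ± 0.28 (edgeR adjusted p = 0.0079), and it was lost in 1 alternative, without heart replicate 1 (adjusted p = 0.055). In bone it was -0.75 (95% interval -1.33 to -0.18, adjusted p = 0.071). Of its exon bases 506 are shared with 6430562O15Rik on the other strand. Without spleen replicate 3, 4 members were called in heart, and without heart replicate 1, 1 member.

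**Figure D3:**
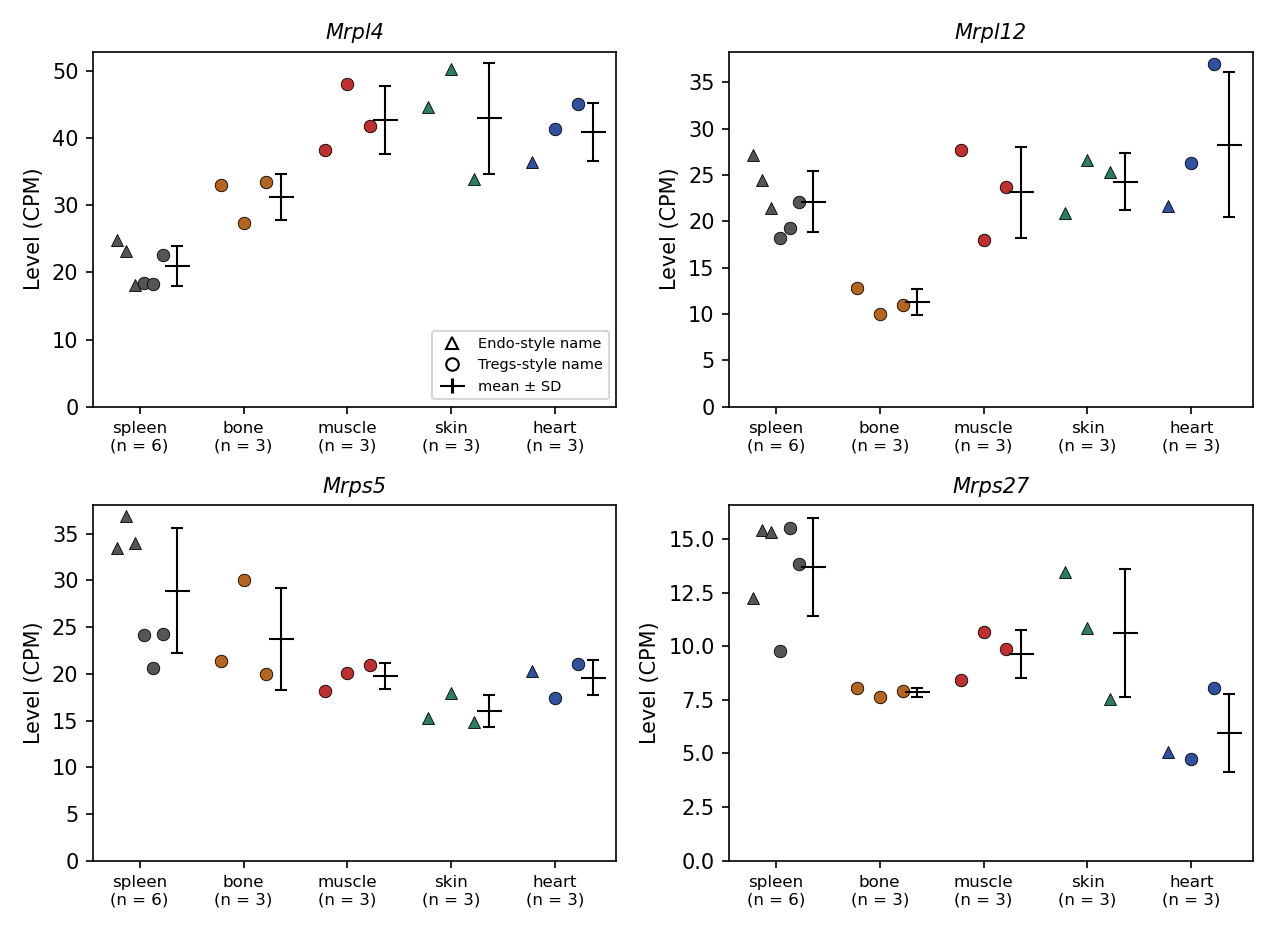
Levels of Mrpl4, Mrpl12, Mrps5 and Mrps27 in each library, in CPM (counts scaled to library size), with triangles for Endo-style and circles for Tregs-style library names and black bars for mean ± SD. Mrpl4 is above spleen in all 12 tissue libraries, Mrpl12 is low in the 3 bone libraries, Mrps5 in the 3 skin libraries is below all spleen libraries, and Mrps27 in bone and heart is below all spleen libraries.

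Further members were picked because their mean fold change over the 4 tissues was among the 5 highest or 5 lowest, and none of the following passed a comparison with spleen. Mrpl22, at the peptide exit tunnel, was at 4.53 CPM in bone replicate 1, at 4.94 and 2.19 CPM in bone libraries b and c, and at 6.33 to 11.9 CPM in spleen. Its muscle levels were 7.998, 6.56 and 2.98 CPM, its skin levels 9.97, 5.65 and 6.12 CPM and its heart levels 6.69, 6.84 and 8.4998 CPM. The bone fold of -1.15 (95% interval -1.98 to -0.31, adjusted p = 0.058) was the lowest of any member there, and the groups did not overlap.

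Mrpl44, a protein with a ribonuclease fold, was at 3.53, 4.78 and 7.12 CPM in bone replicate 1 and libraries b and c, and at 6.06, 9.35 and 5.55 CPM in muscle. It was at 7.85, 7.11 and 8.42 CPM in skin, at 3.58, 5.35 and 8.03 CPM in heart, and at 6.26 to 17.3 CPM in spleen (median 9.27). Mrpl34 was at 8.73, 7.62 and 8.68 CPM in bone and 9.60, 10.7 and 5.71 CPM in muscle, against 6.10 to 21.6 CPM in spleen (median 14.9). It was at 16.3, 11.4 and 11.9 CPM in skin and 6.40, 11.4 and 13.4 CPM in heart. Both genes varied so widely within spleen that all groups overlapped it.

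Mrpl23 was the lowest member per kilobase of exon (0.577 RPKM, below Mrpl47 at 1.80 and Mrps25 at 2.01), at 1.87 to 5.43 CPM in spleen and 0.369, 1.02 and 2.55 CPM in skin. It was at 3.49, 1.79 and 5.00 CPM in bone, 0.674, 2.49 and 2.90 CPM in muscle and 3.20, 3.07 and 2.83 CPM in heart. A processed copy, Mrpl23-ps1, matches it at 100% identity and held 394% of its counts, so the values of Mrpl23 are uncertain.

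Mrpl54 was at 30.4, 26.8 and 22.8 CPM in skin replicates 1 to 3, above the 11.1 to 20.9 CPM of spleen, but its fold of 0.63 (95% interval -0.01 to 1.28) did not pass. It was at 20.9, 15.2 and 7.74 CPM in bone, 28.4, 19.0 and 20.1 CPM in muscle and 17.8, 21.2 and 22.1 CPM in heart. Mrps36, now known as a subunit of the 2-oxoglutarate dehydrogenase complex and not of the mitoribosome, was low in all groups. It was at 0.129 to 3.29 CPM in spleen, 1.95, 3.27 and 1.25 CPM in bone, 3.87, 2.79 and 4.06 CPM in muscle, 7.11, 3.05 and 1.15 CPM in skin and 3.30, 0.865 and 3.31 CPM in heart. Near copies of Mrps36 held up to 48.6% of its counts, so it too is uncertain.

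Mammals have 3 versions of the S18 protein, Mrps18a in the large subunit and Mrps18b and Mrps18c in the small subunit. Mrps18c was at 15.3, 20.1 and 9.76 CPM in heart replicates 1 to 3 and at 5.53, 7.85 and 6.18 CPM in bone replicate 1 and libraries b and c. Muscle held 12.9, 8.75 and 6.37 CPM of it, skin 9.60, 14.2 and 10.3 CPM, and spleen 6.36 to 11.04 CPM. Mrps18c shares 250 exon bases with Gm43511 on the same strand, so its reads are uncertain. The processed copy Gm15946 matches it at 96.0% identity and held 5.84% of its counts. Heart was above bone in every library, by 1.18 ± 0.34 (edgeR adjusted p = 0.038), and the call was lost without any 1 bone library, skin replicate 3 or heart replicate 2, and with the replicate block (adjusted p from 0.052 to 0.27). Mrps18b was at 8.07 to 20.5 CPM in spleen, 10.3, 10.05 and 5.63 CPM in bone, 12.2, 6.49 and 8.19 CPM in muscle, 10.3, 10.6 and 9.57 CPM in skin and 12.6, 9.52 and 13.6 CPM in heart, and it passed no comparison. Mrps18a averaged 17.7 CPM in spleen, 18.8 in heart, 15.2 in muscle, 14.7 in skin and 11.6 in bone, and it passed none either.

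Other members with a defined role did not pass against spleen. Mrps12 is the decoding protein at the messenger RNA channel and had folds of -0.11, 0.10, 0.18 and -0.02 in bone, muscle, skin and heart. Mrpl45 anchors the ribosome at the inner membrane and had folds of -0.62, -0.01, 0.30 and -0.16. Its bone libraries ran from 6.10 to 21.2 CPM. Mrps30, which sits in the large subunit, had folds of -0.13, 0.09, 0.30 and 0.32. By subunit, 1 of 43 large subunit members rose and 5 fell in bone, and 0 of 22 small subunit members rose and 1 fell, with medians of -0.31 and -0.44. Members listed as having bacterial relatives (39 tested) had a median of -0.33 in bone. All others but Mrps36 (26 tested) were counted as specific to mitochondria and had a median of -0.35. These include Mrps18a and Mrps18b, although they are versions of S18. Neither split was tested.

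In direct comparisons between tissues, members were called in those with bone and in none of the others. Heart against bone gave 6 higher and 0 lower members (9.09%), where 6.68% of 15926 genes were called, 4.02% higher and 2.66% lower. The 6 were Mrpl12, Mrps18c, Mrpl21, Mrpl13, Mrpl42 and Mrpl40, of which the last 3 were named after their values were seen. Of all 66 members 50 had a positive fold change, with a median of 0.37 beside -0.02 for all genes, and 22 lay above every bone library (13.2% of all genes did) while 0 lay below (13.5%). The count was 1 without bone library c or without heart replicate 2, 2 without bone library b, 3 without bone replicate 1 or heart replicate 3, and 10 by DESeq2. With the replicate block it was 0, in a fit that called 3 genes higher and 3 lower of all 15926. The median stayed between 0.25 and 0.47.

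Mrpl21, a large subunit protein with a bacterial relative, was at 15.6 CPM in bone replicate 1 and 9.69 and 7.43 CPM in libraries b and c. It was at 19.7, 27.0 and 24.0 CPM in heart, 22.6, 19.6 and 19.7 CPM in muscle, 22.4, 20.6 and 21.6 CPM in skin and 15.3 to 20.4 CPM in spleen. Heart was higher than bone by 1.12 ± 0.25 (edgeR adjusted p = 0.0086) and bone lower than muscle by -0.91 ± 0.24 (adjusted p = 0.032), without overlap. The first was lost without bone library c or heart replicate 2 (adjusted p = 0.060 without the latter) and with the replicate block (0.62, adjusted p = 0.52). The second was lost without bone library b or c or any 1 muscle library (adjusted p up to 0.15) and with the replicate block (-0.49, adjusted p = 0.60). Mrpl21 shares 117 exon bases with Ighmbp2 on the other strand. Mrpl13 was higher in heart by 0.93 ± 0.25 (adjusted p = 0.028), Mrpl42 by 0.80 ± 0.24 (adjusted p = 0.043) and Mrpl40, of the central protuberance, by 0.77 ± 0.23 (adjusted p = 0.046). The processed copy Gm6419 matches Mrpl42 at 96.3% identity and held 21.7% of its counts, so Mrpl42 is uncertain. The calls of Mrpl40 and Mrpl42 were each lost in 14 of 27 alternatives, and that of Mrpl13 in 6, among them without any 1 bone library and without heart replicate 2 or 3. Without heart replicate 3 the adjusted p of Mrpl40 was 0.25, and without bone library c that of Mrpl42 was 0.18.

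Bone against muscle gave 0 higher and 2 lower members, Mrpl12 and Mrpl21 (3.03%, against 4.86% of all genes, 2.57% higher and 2.29% lower), with a median of -0.34 and 56 of 66 members negative. Below every muscle library lay 13 members (12.4% of all genes) and above 0 (11.5%). Without bone library b or c, or without muscle replicate 1 or 2, 1 was called. Skin against bone gave 1 higher and 1 lower member (3.03%, against 8.11%, 4.55% higher and 3.56% lower), with a median of 0.28. Without the naming style 8 were higher and 0 lower (median 0.44), with the replicate block 1 was higher, and without spleen replicates 1 and 2 there were 0. The fit without the naming style called 1446 of all 15617 genes higher and 1368 lower. Above every bone library lay 28 members (21.9% of all genes) and below 1 (21.2%). Mrps6 was the higher one, at 31.1, 22.0 and 16.97 CPM in skin and 15.8, 8.13 and 16.3 CPM in bone (1.61 ± 0.41, adjusted p = 0.015), and Mrps5 the lower one. As skin and bone libraries differ in naming style throughout, the fold of Mrps6 rests also on the difference between the spleen styles, and it was 0.81 without the style in the model (adjusted p = 0.10). The call was also lost with the replicate block (0.82, adjusted p = 0.24), without spleen replicates 1 and 2 (1.44, adjusted p = 0.14) and without skin replicate 1 (adjusted p = 0.052). The style and these 2 tissues cannot be told apart but through spleen.

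Skin against muscle, heart against muscle and heart against skin each gave 0 called members by edgeR, where 1.31% (0.692% higher, 0.621% lower), 0.452% (0.358% and 0.0942%) and 2.38% (1.49% and 0.892%) of all genes were called. At an unadjusted p under 0.05 there were 5, 6 and 5 members (7.58%, 9.09% and 7.58%, against 12.3%, 9.74% and 13.7% of all genes). DESeq2 and limma-voom also called 0 in each, while in skin against muscle 1 member was higher without the naming style and 1 with the replicate block. Of all 15617 genes, the latter fits called 354 and 534 higher and 395 and 534 lower. In skin against muscle 9 lay above without overlap (14.7% of all genes) and 3 below (14.4%). In heart against muscle these were 3 (6.66%) and 1 (5.77%), and in heart against skin 1 (13.7%) and 6 (13.8%). The medians were -0.02, 0.10 and -0.01. Intervals lay within 2-fold for 26, 47 and 39 of the 66 members, so these comparisons leave room for differences of that size in the others.

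The ribosomal RNAs of the mitoribosome, mt-Rnr1 (of the small subunit) and mt-Rnr2 (of the large subunit), were also lowest in bone by their means. Bone held 4644 ± 497 CPM of mt-Rnr1, skin 6560.1 ± 1481, muscle 6777 ± 1222 and heart 7825 ± 1926 (SD, n = 3 for each). Spleen held 10100 ± 3032 CPM (n = 6). It fell by 1.40 ± 0.20 in bone (edgeR adjusted p = 2.9e-05) and by 0.86 ± 0.20 in muscle (adjusted p = 0.0028), and was called in neither skin (-0.32) nor heart (-0.48). mt-Rnr2 fell by 1.23 ± 0.21 in bone (adjusted p = 0.00022) and by 0.69 ± 0.21 in muscle (adjusted p = 0.019), with -0.40 in both skin and heart. Heart was above bone for both, by 0.92 and 0.85, and skin above bone for mt-Rnr1, by 1.08. As skin and bone libraries differ in naming style throughout, the 1.08 rests also on the difference between the spleen styles. Endo-style spleen libraries held 6663 to 10196 CPM of mt-Rnr1 and Tregs-style ones 9461 to 14883 CPM. The spleen libraries also differ among themselves in their share of ribosomal RNA, and the part of RNA removal in these values was not tested.

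Other genes of mitochondrial translation were followed by list. Of all genes tested, 8.48%, 14.2%, 15% and 11.8% rose in bone, muscle, skin and heart, and 6.32%, 11.3%, 12.8% and 8.46% fell. Mitoribosomal proteins with other kinds of names (5 genes) gave 1 lower gene in bone, muscle and skin each and none in heart. Chchd1, a small subunit protein, fell by 1.51 in bone and 1.12 in muscle, and Ptcd3 by 0.78 in skin. Among the family genes outside the rule, Mrpl33 rose in muscle by 0.59, in skin by 1.33 and in heart by 0.90, and Mrpl18 fell by 0.63 in bone. The bone folds of the others went both ways. They were -0.34 (Mrpl17), -0.02 (Mrpl20), 0.39 (Mrpl33), -0.22 (Mrpl46) and 0.20 (Mrpl48). For Mrps9, Mrps10, Mrps24 and Mrps34 they were 0.09, -0.05, -0.11 and -0.82. Assembly and ribosomal RNA modification factors (22 tested) had 0, 1, 1 and 1 higher and 1, 2, 2 and 5 lower genes in bone, muscle, skin and heart. Rbfa, which helps to mature the small subunit, rose by 0.64, 0.54 and 0.68 in muscle, skin and heart, and the assembly GTPase gene Mtg2 fell by 0.92, 0.80 and 0.69. Translation factors (11 tested) gave 1 lower gene in bone, the recycling factor Mrrf (-1.33), and 1 in skin, Guf1 (-0.72).

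Beside the lists that follow, 6.32%, 11.3%, 12.8% and 8.46% of all genes fell in bone, muscle, skin and heart. The shares that rose were 8.48%, 14.2%, 15% and 11.8%. Mitochondrial tRNA synthetases (17 tested) fell in 3, 4, 7 and 4 cases in bone, muscle, skin and heart. They rose in 0, 1, 0 and 1, with Ears2 at -1.09, -2.29, -1.95 and -1.16. Messenger RNAs of mitochondrial DNA (13 tested), which the mitoribosome translates, fell in 7, 7, 5 and 0 cases with medians of -0.76, -0.75, -0.78 and -0.47. Nuclear subunits of the respiratory chain (40 tested) fell in 4 cases in bone and rose in 0. They rose in 6, 6 and 3 cases in muscle, skin and heart (15%, 15% and 7.5%, against 14.2%, 15% and 11.8% of all genes) with medians of 0.09, 0.19 and 0.18, and Ndufs7 fell in muscle (-0.48). Cytosolic ribosomal proteins (87 tested, 86 in heart) fell in 63, 52, 47 and 22 cases with medians of -0.99, -0.72, -0.56 and -0.42, and rose in at most 1. The median of the members was closer to 0 than that of the cytosolic ribosomal proteins and of the mitochondrial messenger RNAs in each of the 4 tissues, and in bone it was near the -0.29 of the respiratory chain subunits. The differences between lists were not tested.

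**Figure D4:**
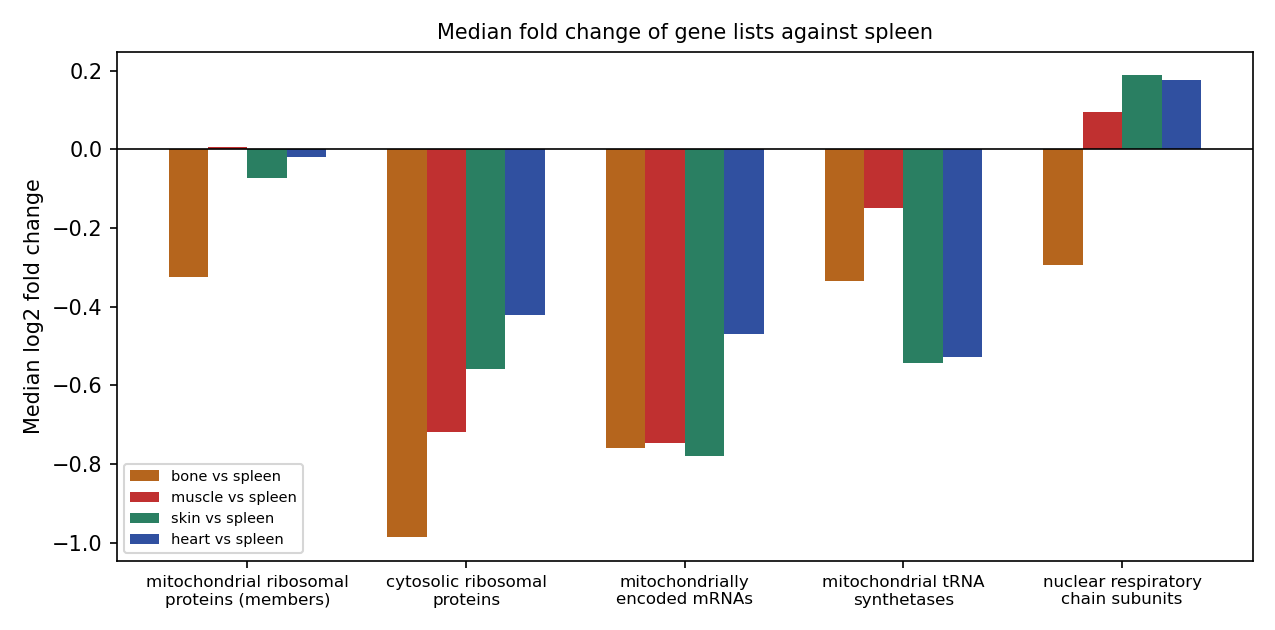
Median log2 fold change against spleen of the members and of 4 other gene lists in bone, muscle, skin and heart Tregs, as bars from 0, without error. Cytosolic ribosomal proteins run from -0.99 in bone to -0.42 in heart, while the members lie at -0.33 in bone and between -0.07 and 0.00 in the other tissues.

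Regulators and cell cycle genes were also followed, where 8.48%, 14.2%, 15% and 11.8% of all genes rose in bone, muscle, skin and heart. The shares that fell were 6.32%, 11.3%, 12.8% and 8.46%. Among 8 regulators of mitochondrial biogenesis tested, 1 rose in each tissue, and 1, 4, 2 and 3 fell in bone, muscle, skin and heart. The one that rose was Gabpb1, a subunit of the ETS factor GABP, by 0.66, 1.20, 1.40 and 1.43. Myc, a transcription factor that promotes ribosome production, fell by 1.30 in bone, 1.13 in muscle and 0.89 in heart and did not pass in skin (-0.21). The coactivator gene Ppargc1b fell by 1.35 in muscle, 1.85 in skin and 1.22 in heart, and its relative Pprc1 by 0.53, 1.23 and 0.67. Of 9 genes of mitochondrial DNA transcription and replication, 2, 2, 0 and 1 rose and 1, 4, 3 and 4 fell in bone, muscle, skin and heart. Tfam, which packs mitochondrial DNA, fell by 0.63, 0.47, 0.48 and 0.57. The mitochondrial RNA polymerase gene Polrmt fell in muscle (-0.71), skin (-1.04) and heart (-0.97). Polg and Polg2, subunits of the mitochondrial DNA polymerase, rose by 0.44 and 0.53 in bone and by 0.44 and 0.83 in muscle, and Polg2 by 0.73 in heart. Cell cycle genes rose in 6, 14, 18 and 12 of 18 cases in bone, muscle, skin and heart. Their part in the members' values was not tested.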

How the data were processed

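RNA of sorted Tregs was purified with a column kit and 1 ng went into Ovation Solo libraries, per the labels' protocols. The values are raw counts per gene as deposited by the authors in 2 tables with identical spleen columns. The submitters' processing notes name STAR, featureCounts, limma and GRCm38. Not given in the sources used here were versions, annotation release, strand setting and the rule for multi-mapped reads. Names and biotypes came from the tables, and positions from GENCODE M21.

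Genes were filtered by filterByExpr, scaled by TMM and tested by robust quasi-likelihood in edgeR 4.0.16 (R 4.3.3), with group and naming style as terms and Benjamini-Hochberg adjustment over all genes at 0.05. The fit used 15 libraries of the first table, 9 of the heart table, or all 18 for heart against other tissues. SEs were derived from the F statistic, and the script was tested on simulated counts. For 2 bone columns, b and c, the replicate number is unknown. Spread, and so every p-value, is that among libraries (pools of mice in injured tissues). Depth, 5970346 to 22635760 counts, limits low members.

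Named members were up to 6 highest and 6 lowest called per comparison with spleen (3 and 3 between tissues), the 3 extremes by RPKM, members of set roles and those failing the filter. Per-library values went to the 5 highest and 5 lowest by mean fold and to Mrps18b and Mrps18c. The per-library values of Mrpl12, Mrpl21, Mrpl30, Mrpl52, Mrps5, Mrps6 and Mrps31 were added after values were seen. Members and lists were chosen with earlier results of these data known. Alternatives left out the style, each library, or the spleen libraries richest in ribosomal RNA (added after seeing the data), took spleen of one style, a replicate block, RLE or upper-quartile scaling, no filter, library sizes without ribosomal and 7SK RNA, DESeq2 1.42.0 or limma-voom (limma 3.58.1).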

Additional observations from a re-analysis of the deposited data

Results flagged for a closer look

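In spleen, Mrpl1 was at 32.2 CPM in replicate 4, far from the 21.7 to 24.7 CPM of the other 5 libraries. Mrps36 was at 0.129 CPM in spleen replicate 5, far from the 2.48 to 3.29 CPM of the others. Such a gap arises by chance in about 1 in 20 groups, and 39 groups were examined.

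Direct tests between injured tissues found differences in level, given as log2 fold changes, for the following genes. Bone was lower than muscle for Mrpl12 (-1.04) and Mrpl21 (-0.91). Heart was higher than bone for Mrpl12 (1.32), Mrps18c (1.18), Mrpl21 (1.12), Mrpl13 (0.93), Mrpl42 (0.80) and Mrpl40 (0.77). Skin was lower than bone for Mrps5 (-1.17) and higher for Mrps6 (1.61). For the ribosomal RNAs, mt-Rnr1 was higher in skin than in bone (1.08) and in heart than in bone (0.92), and mt-Rnr2 in heart than in bone (0.85). The folds of skin against bone rest also on the difference between the spleen naming styles. Without the style in the model they were -0.57 for Mrps5 and 0.81 for Mrps6.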

How the results depend on the processing

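Of 28 called pairs of a member and a comparison, 4 kept the call in every alternative run (Mrpl4 in muscle, skin and heart, Mrps5 in skin against spleen). The other 24 lost it in at least 1. Of 360 pairs, 0 turned direction while called in the main fit or in the alternative. Turns of pairs called in neither fit were not counted. Of 332 pairs not called, 31 passed in at least 1. Counts of called members (and the median log2 fold change where it moved) were as follows. The fit without the naming style called 1552, 2457, 1446 and 354 of all 15617 genes higher in bone, muscle, skin against bone and skin against muscle. It called 1150, 2057, 1368 and 395 lower. Its member counts were 13 in bone (-0.49), 7 in muscle (-0.17), 8 in skin against bone (0.44) and 1 in skin against muscle (0.14). Without spleen replicates 1 and 2 they were 2 in skin (0.17) and 0 in skin against bone (0.50), with a median of 0.16 in skin against muscle. DESeq2 gave 10 in heart against bone (all genes 985 higher, 645 lower) and limma-voom 5 in muscle (all genes 2298 higher, 1878 lower). Leaving out 1 library gave 2 to 8 in bone, 2 to 6 in skin and 1 to 4 in muscle and in heart (heart median -0.16 to 0.14). It gave 1 to 2 in bone against muscle, 1 to 9 in heart against bone, and medians of -0.086 to 0.32 in heart against skin. The cause of each change was not tested. Libraries of one number in 22 pairs had deviations correlated from -0.27 to 0.37, 4 of them over 0.1, so the numbers were not taken to pair samples. With the replicate block there were 1 in bone (-0.63), 9 in muscle (-0.32), 5 in heart (-0.19), 0 in bone against muscle, 1 in skin against bone (0.53), 1 in skin against muscle (0.14) and 0 in heart against bone. In that fit bone rests on 1 library and spleen on replicates 1 to 3, with no term for style. Of all genes it called 3 higher and 3 lower in heart against bone and 23 higher and 0 lower in bone against muscle, so its member counts of 0 say nothing about the members. Upper-quartile scaling moved the median of all genes by -0.10 in skin. For heart, which carries both naming styles, the fit with spleen of the same styles equals the one reported. With 3 libraries a group, low members (Mrpl23, Mrps36) have wide intervals.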
